A study of Mus musculus with 10 samples.

Results

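Genes that mark endothelial cells, the cells that line blood and lymph vessels, were followed in the cochlea of young mice kept with or without a running wheel. The group was drawn up as 41 gene symbols, and a gene was taken as measured where a probe set of the array carried that symbol and no other in the platform annotation. This gave 39 measured genes of 29766 genes on the arrays, and Egfl7 and Nrp1 were not analysed here. Total RNA came from ground inner ear tissue, labelled as cochlea, of CBA/CaJ mice aged 6 months with normal hearing, and 1 array was run per sample. All mice were housed singly. The 5 runner samples came from cages with a running wheel and the 5 control samples from cages without one, and the labels, which call the runner samples young controls too, name no other treatment, allele or agent. The labels give neither the sex of the mice nor how long they had run, and they do not say whether a sample is 1 animal, so each p-value covers only how far these samples scatter, part of which may be technical. The comparison asks whether endothelial transcripts differ between wheel and no-wheel housing at this age.

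Endothelial cells hold together through junction proteins such as the cadherin encoded by Cdh5, read the growth factors VEGF and angiopoietin through receptor tyrosine kinases, and keep their identity through transcription factors of the ETS and SOXF families. Several of these factors also act in blood cells, which share an origin with endothelium in the embryo. In the cochlea the capillaries of the stria vascularis form the blood-labyrinth barrier, which holds the ion gradients that hair cells need and relies on transporters for glucose and other solutes.

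Values are log2 expression, and the median of each array over all genes lay between 5.35 and 5.43. Of the 39 endothelial genes, 33 had a mean at or above the median of all genes, 5.40. Arrays correlated at 0.991 to 0.997 within groups over all genes, and 2 of all 29766 genes passed the test, the bone genes Bglap and Bglap2. The sample is bulk tissue, so fewer cells of a type and less RNA per cell cannot be told apart. Precision is limited by having 5 arrays a group. Runner 1 was the highest runner in the mean of all 39 genes and in 4 of the 6 role groups, at 6.5 over the 39 where runners 2 to 5 ran from 6.29 to 6.38. Control 1, at 6.39, was not the lowest control there (control 3, 6.38), but it was the lowest in all 6 blood cell lists, and the counts are given with and without these arrays.

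None of the 39 endothelial genes passed the test over all genes (limma, adjusted p under 0.05, where 0.00672% of all genes passed). At an unadjusted p under 0.05, 5 were lower in runners and 1 was higher, 12.8% and 2.56% of the group, where 3.92% of all genes were lower and 3.21% higher. The 5 were Myct1, Clec14a, Lyl1, Fli1 and Tal1, and the 1 was Mfsd2a. The runner mean lay below the control mean for 30 of the 39, or 76.9%, where 49.5% of all genes did so. The median log2 difference, runner minus control, was -0.056 over the endothelial genes and 0.00091 over all genes. Differences ran from -0.28 for Myct1 to 0.16 for Mfsd2a, so the largest was a 1.21-fold difference. With arrays centred on their medians, 27 of 39 were lower, 69.2% against 38.6% of all genes, and the median was -0.033.

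**Figure D1:**
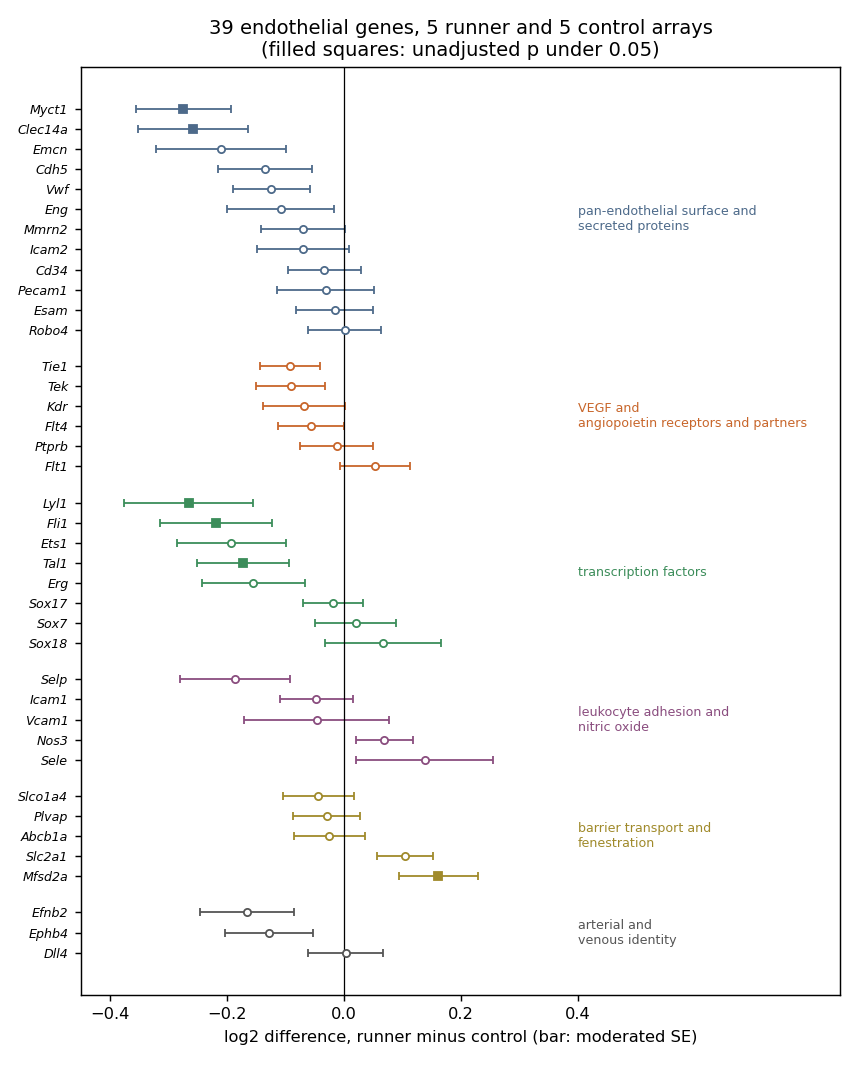
Log2 difference, runner minus control, of the 39 endothelial genes grouped by role, each with its moderated standard error from limma over 5 runner and 5 control arrays. Filled squares mark the 6 genes at an unadjusted p under 0.05, and 30 of 39 points lie left of 0.

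Complete separation of the groups was seen for 2 endothelial genes, Myct1 with every runner below every control and Slc2a1 with every runner above every control. That is 1 of 39 in each direction, where 0.548% of all genes were separated with runners lower and 0.38% with runners higher. The 250 bases before the annotated start are shown for both, and for Clec14a and Lyl1, whose differences were next in size. Sequences are from RefSeq, build GRCm38.p6, and read 5′ to 3′ on the strand of the gene. Capitals mark each GGAA, the core that ETS factors such as Fli1, Erg and Ets1 recognise, or its reverse complement TTCC.
Myct1, chr10:5593478-5593727, + strand: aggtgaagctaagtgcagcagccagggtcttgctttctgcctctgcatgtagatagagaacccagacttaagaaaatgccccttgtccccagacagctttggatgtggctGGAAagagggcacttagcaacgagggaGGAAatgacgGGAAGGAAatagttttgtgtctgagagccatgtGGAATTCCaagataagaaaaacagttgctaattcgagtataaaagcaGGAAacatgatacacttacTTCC
Clec14a, chr12:58269259-58269508, - strand: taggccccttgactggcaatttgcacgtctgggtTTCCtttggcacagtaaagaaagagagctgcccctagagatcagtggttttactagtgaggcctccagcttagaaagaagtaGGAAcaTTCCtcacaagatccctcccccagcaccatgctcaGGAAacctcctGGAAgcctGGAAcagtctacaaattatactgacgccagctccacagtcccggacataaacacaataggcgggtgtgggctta
Lyl1, chr8:84701207-84701456, + strand: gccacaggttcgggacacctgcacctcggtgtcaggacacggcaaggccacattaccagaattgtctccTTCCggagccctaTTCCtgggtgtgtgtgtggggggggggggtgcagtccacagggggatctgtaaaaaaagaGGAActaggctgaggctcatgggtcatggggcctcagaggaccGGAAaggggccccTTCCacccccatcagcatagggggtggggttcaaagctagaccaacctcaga
Slc2a1, chr4:119108495-119108744, + strand: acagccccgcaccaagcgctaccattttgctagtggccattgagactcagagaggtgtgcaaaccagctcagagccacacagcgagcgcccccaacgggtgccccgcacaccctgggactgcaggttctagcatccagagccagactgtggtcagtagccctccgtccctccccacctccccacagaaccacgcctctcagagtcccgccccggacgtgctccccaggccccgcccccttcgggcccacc
GGAA or TTCC occurred 8 times in the Myct1 window, 6 times in that of Clec14a, 5 times in that of Lyl1 and 0 times in that of Slc2a1. The core is short, and 93.4% of 32851 windows of this length in the table hold it on either strand, against 25 of 27 windows (92.6%) of the 24 measured endothelial genes with an entry. The longer form AGGAAG, or CTTCCT on the other strand, which contains the core, was in 11 of the 27 (40.7%) and in 29.5% of all windows. None of the 4 windows shown holds it. The 4 windows were picked by the values of their genes, and the number of cores per window was not counted over all windows. These are matches of letters and say nothing of binding.

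Surface and secreted proteins found on most endothelium were the largest role group, with 12 of 13 measured. In 11 of the 12 the runner mean was lower, 2 at an unadjusted p under 0.05 and 0 adjusted over all genes, and the median difference was -0.090. Beside this and later list counts at that p over the 10 arrays, 3.92% of all genes were lower and 3.21% higher. Myct1, which encodes a small membrane protein of endothelial and blood-forming cells, was at 5.40, 5.53, 5.38, 5.81 and 5.53 in controls 1 to 5 and at 5.34, 5.16, 5.15, 5.33 and 5.29 in runners 1 to 5. The groups met closely, with the highest runner 5.34 and the lowest control 5.38. Its difference was -0.28 ± 0.082 (SE; limma adjusted p = 0.583). Clec14a, a C-type lectin receptor of the vessel wall, was at 4.06, 4.18, 3.80, 4.14 and 4.30 in controls and at 3.94, 3.94, 3.89, 3.60 and 3.82 in runners. Control 3 lay among the runners, and the other 4 controls lay above all of them. Its difference was -0.26 ± 0.094 (SE; limma adjusted p = 0.607).

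The defining endothelial genes Pecam1 and Cdh5 overlapped between groups. Pecam1, the adhesion molecule CD31, was at 6.14, 6.47, 6.19, 6.51 and 6.26 in controls and at 6.40, 6.32, 6.13, 6.32 and 6.25 in runners. Controls 2 and 4 were the highest arrays and runner 3 and control 1 the lowest, so the groups overlapped almost wholly, and the difference was -0.03 ± 0.083 (SE) with a 95% interval of -0.21 to 0.15. Its sign turned when control 2, control 4 or runner 3 was left out (0.0080, 0.018 and 0.0074). Cdh5 was at 7.59, 7.70, 7.43, 7.77 and 7.67 in controls and at 7.73, 7.43, 7.37, 7.52 and 7.45 in runners. Runner 1 was among the highest of the 10 arrays and the other runners were below 4 of the 5 controls. The difference of Cdh5 was -0.13 ± 0.081 (SE; limma adjusted p = 0.760).

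Other members of the surface group spread between these. Emcn, the sialomucin endomucin of capillaries and veins, differed by -0.21 ± 0.11 and Vwf, the platelet-binding glycoprotein also made by megakaryocytes, by -0.12 ± 0.065 (SE). Eng, a co-receptor for TGF-beta family ligands, differed by -0.11 ± 0.092. Mmrn2, a matrix ligand of Clec14a, and Icam2, an adhesion molecule of resting endothelium, each differed by -0.07. Cd34, the sialomucin of small vessels and blood progenitors, Esam, a tight junction protein, and Robo4, a guidance receptor, lay near 0 at -0.034, -0.016 and 0.0012. The 95% intervals of these 3 were -0.17 to 0.10, -0.16 to 0.13 and -0.13 to 0.14, so a difference the size of that of Myct1 lay outside each.

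Receptors for VEGF and angiopoietin varied little. Of 6 measured in this role group, 5 had a lower runner mean, and limma gave 0 below 0.05 without adjustment and 0 with it, for a median of -0.062. Tie1, the partner receptor of Tek, was at 6.07, 6.13, 6.08, 6.06 and 6.02 in controls and at 6.03, 5.99, 5.97, 5.87 and 6.03 in runners. All but the lowest control exceeded every runner, and the difference was -0.09 ± 0.051 (SE; limma adjusted p = 0.733). Tek, the angiopoietin receptor also called Tie2, was at 6.02, 6.05, 5.93, 6.19 and 6.17 in controls and at 6.02, 5.95, 5.98, 5.96 and 5.99 in runners. Its controls spread more widely (SD 0.11) than its runners (SD 0.028), and all runners lay inside the control range. Kdr, the main signalling receptor for VEGF, was at 6.76, 6.87, 6.65, 6.95 and 6.93 in controls and at 6.91, 6.77, 6.72, 6.73 and 6.69 in runners. All 5 runners lay within the range of the controls, and the difference of Kdr was -0.07 ± 0.070 (SE; limma adjusted p = 0.862). Flt1, a VEGF receptor that largely acts as a decoy, differed by 0.053 ± 0.060, Flt4, the receptor of lymphatic endothelium, by -0.056 ± 0.057, and Ptprb, the phosphatase that restrains Tek, by -0.013 ± 0.062.

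Transcription factors divided by family. The ETS factors Fli1, Erg and Ets1 and the basic helix-loop-helix factors Tal1 and Lyl1, all 5 of which also act in blood cells, had lower runner means, while the SOXF factors Sox7, Sox17 and Sox18 lay between -0.019 and 0.067. This division by family was made after the values were seen and was not tested. Over the whole group of 8, 6 had a lower runner mean, of which 3 reached an unadjusted p under 0.05 and 0 passed over all genes, and the median was -0.16. The median of the 5 was -0.19, and -0.17 on centred arrays. The SOXF median was 0.020 and turned to -0.011 without runner 1 and to -0.017 without runner 1 and control 1.

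Lyl1 was at 7.35, 7.58, 7.48, 7.45 and 7.46 in controls and at 7.55, 7.35, 6.83, 7.09 and 7.16 in runners. Runner 1 was higher than all controls but control 2, and runners 3, 4 and 5 were below every control. The difference was -0.27 ± 0.11 (SE; limma adjusted p = 0.656). Fli1 was at 7.70, 7.98, 7.89, 8.0 and 7.84 in controls and at 8.0, 7.71, 7.49, 7.52 and 7.59 in runners. As with Lyl1, runner 1 was high and runners 3, 4 and 5 lay below all controls, and control 1 was the lowest of its group. The difference of Fli1 was -0.22 ± 0.097 (SE; limma adjusted p = 0.678). Tal1 was at 7.21, 7.38, 7.36, 7.38 and 7.26 in controls and at 7.39, 6.97, 7.03, 7.17 and 7.17 in runners. Runners 2 to 5 were below every control and runner 1 above them all, for a difference of -0.17 ± 0.079 (SE; limma adjusted p = 0.692). Ets1, given because it passed in 1 alternative, was at 6.80, 6.99, 6.95, 7.02 and 6.97 in controls and at 7.12, 6.73, 6.65, 6.57 and 6.69 in runners. Runners 2 to 5 were again below all controls, with runner 1 above them. Ets1 differed by -0.19 ± 0.093 and Erg by -0.16 ± 0.088 (SE).

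**Figure D2:**
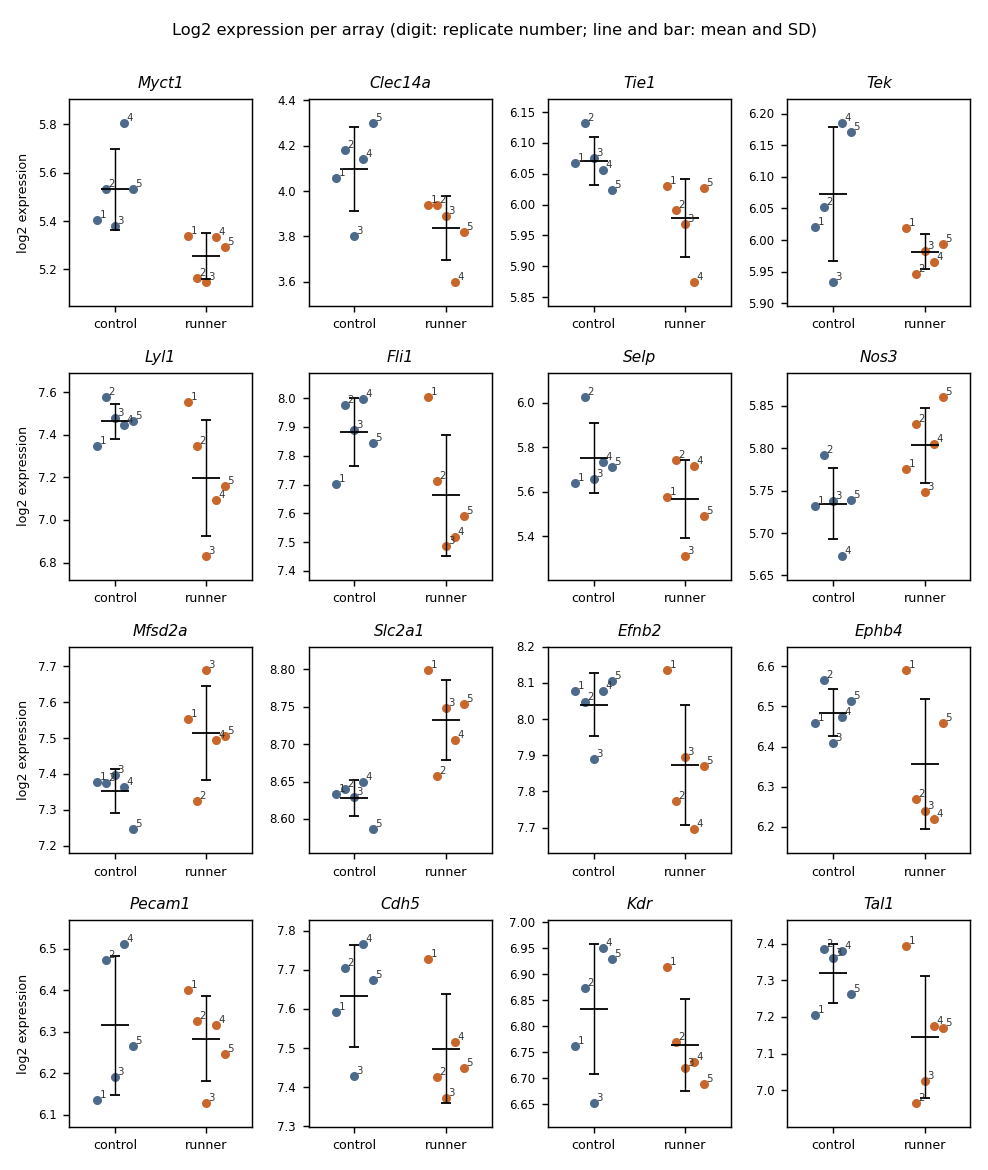
Log2 expression in each of 5 control and 5 runner arrays for 16 endothelial genes, with the replicate number beside each point and the group mean and SD as a line and bar; each panel has its own axis, which does not start at 0. Runners all lie below controls for Myct1 and above them for Slc2a1. Runner 1 is the highest runner in every panel except those of Clec14a, Selp, Nos3 and Mfsd2a.

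Genes for leukocyte adhesion and nitric oxide gave no common direction. Of 5 measured, 3 were lower and 2 higher, 0 at an unadjusted p under 0.05 in limma, with a median of -0.047. Selp, the adhesion molecule P-selectin stored in endothelium and platelets, was at 5.64, 6.03, 5.66, 5.73 and 5.71 in controls and at 5.58, 5.74, 5.31, 5.71 and 5.49 in runners. The groups overlapped, with control 2 well above the rest, and the difference was -0.19 ± 0.095 (SE; limma adjusted p = 0.71). Nos3, the endothelial nitric oxide synthase, was at 5.73, 5.79, 5.74, 5.67 and 5.74 in controls and at 5.78, 5.83, 5.75, 5.81 and 5.86 in runners. Runners 2, 4 and 5 were above every control, and the difference was 0.07 ± 0.049 (SE; limma adjusted p = 0.783) with a 95% interval of -0.04 to 0.17. Sele, the inducible E-selectin, differed by 0.14 ± 0.12, Icam1 by -0.047 ± 0.063 and Vcam1, a ligand for leukocyte integrins that stroma also expresses, by -0.047 ± 0.12 (SE).

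Barrier and transport genes held the highest difference of the 39, Mfsd2a, and the only gene with every runner above every control, Slc2a1. Of 5 measured, 3 were lower and 2 higher, 1 of the latter at an unadjusted p under 0.05 and 0 over all genes, with a median of -0.025. Slc2a1, the glucose transporter GLUT1 of barrier endothelium and other cells, was at 8.63, 8.64, 8.63, 8.65 and 8.59 in controls and at 8.80, 8.66, 8.75, 8.70 and 8.75 in runners. The controls were close together (SD 0.024), and runner 2 lay closest to them. The difference was 0.10 ± 0.048 (SE; limma adjusted p = 0.698), and the groups were also apart on centred arrays, where 0.793% of all genes had every runner above every control. Mfsd2a, a lipid transporter that restrains transcytosis at the blood-brain barrier and is also made by liver and fat, was at 7.38, 7.38, 7.40, 7.36 and 7.25 in controls and at 7.55, 7.33, 7.69, 7.50 and 7.51 in runners. All runners except runner 2 were above all controls, and the difference was 0.16 ± 0.067 (SE; limma adjusted p = 0.659). Adipocyte markers were higher in runners in 6 of 7, with a list mean of 5.17 to 5.54 in controls and 5.54 to 6.00 in runners. Runner 3 was highest for both Mfsd2a and that mean. The lowest control was control 5 for Mfsd2a, at 7.25, and control 1 for the adipocyte mean, at 5.17. Runner 1 was the next highest runner for Mfsd2a, at 7.55, and runner 5 for that mean, at 5.83. The part of adipocytes in the Mfsd2a difference was not tested. The drug efflux pump Abcb1a (-0.025 ± 0.061), the organic anion carrier Slco1a4 (-0.044 ± 0.061) and Plvap, the diaphragm protein of fenestrated capillaries (-0.030 ± 0.058), lay near 0.

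Genes of arterial and venous identity followed the pattern of runner 1. Efnb2, the ephrin ligand of arteries, was at 8.08, 8.05, 7.89, 8.08 and 8.10 in controls and at 8.13, 7.77, 7.89, 7.70 and 7.87 in runners. Runner 1 was the highest array, while control 3 lay among the other runners. The difference was -0.17 ± 0.080 (SE; limma adjusted p = 0.704). Ephb4, its receptor on veins, was at 6.46, 6.57, 6.41, 6.47 and 6.51 in controls and at 6.59, 6.27, 6.24, 6.22 and 6.46 in runners. Again runner 1 topped all arrays, and runners 2, 3 and 4 lay below every control, for a difference of -0.13 ± 0.075 (SE; limma adjusted p = 0.750). Dll4, the Notch ligand of arteries and sprouting tips, differed by 0.0030 ± 0.064. The median of the 3 genes was -0.13, and 0 were at an unadjusted p under 0.05 in limma.

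Ligands and signalling partners of these receptors were counted from a list of 26, of which 25 were measured. Of these, 18 were lower and 7 higher, with 3 lower and 0 higher at an unadjusted p under 0.05 and 0 over all genes, and a median of -0.051. On centred arrays 13 of 25 were lower, with 0 reaching an unadjusted p under 0.05 in limma. Angpt1, the ligand that activates Tek, differed by -0.16 ± 0.071 and Vegfc, the ligand of Flt4, by -0.13 ± 0.058 (SE), with limma adjusted p = 0.678 and 0.691. A further 22 endothelial genes, 20 of them measured, had 11 lower and 9 higher, 3 of the lower and 0 of the higher at an unadjusted p under 0.05. Among these, the apelin receptor Aplnr differed by -0.25 ± 0.076 and the secreted proteoglycan Esm1 by -0.37 ± 0.14. Another list held 10 genes of brain endothelial barrier, all measured and all lower, 3 at an unadjusted p under 0.05 and 0 over all genes, with a median of -0.093. The monocarboxylate transporter Slc16a1, which other cochlear and brain cells also express, differed by -0.20 ± 0.061 and the amino acid transporter Slc38a5, also made by red cell precursors, by -0.24 ± 0.099. On centred arrays 9 of the 10 were lower.

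Blood cell markers were also mostly lower in runners, and the lists differed in where runner 1 lay. The mean of Fli1, Erg, Ets1, Tal1 and Lyl1 was 6.97, 7.19, 7.12, 7.21 and 7.14 in controls 1 to 5 and 7.24, 6.91, 6.75, 6.84 and 6.88 in runners 1 to 5. Against the average of its own group's other 4 arrays, runner 1 stood 0.39 higher and control 1 stood at -0.19. For 12 macrophage markers, 11 lower, the mean was 6.65 to 6.84 in controls and 6.47 to 6.88 in runners, with runner 1 at 0.39 and control 1 at -0.13 by the same measure. The mean of 10 neutrophil markers, all lower, was 8.75 to 9.14 in controls and 8.68 to 9.17 in runners, with runner 1 at 0.46 and control 1 at -0.27. In both lists, as for the 5 factors, runners 2 to 5 were below every control and runner 1 above them all. Of 8 megakaryocyte and platelet markers, all were lower and all at an unadjusted p under 0.05, with 0 over all genes. Their mean was 7.76 to 8.22 in controls and 7.47 to 7.79 in runners, with Ppbp, a platelet chemokine, at -0.39 ± 0.076. Here runner 1, at 7.76, was just below the lowest control, and runner 4 overlapped the controls. Vwf and Selp, which platelets carry, differed by -0.12 and -0.19. Members with smaller differences, such as Pecam1 (-0.03), Icam2 (-0.07) and Esam (-0.016), were not sorted by whether platelets carry them. For 9 B lineage markers, all lower, the mean was 6.34 to 6.72 in controls and 5.84 to 6.33 in runners, with runner 1 the highest runner but below every control. Of 8 erythroid markers, all lower, it was 8.19 to 8.65 in controls and 8.0 to 8.53 in runners, and of 9 blood progenitor markers, 6 lower, it was 6.79 to 6.96 and 6.66 to 6.93. In these 2 lists runner 1 and at least 1 other runner lay within the control range. The part of these cells in the endothelial differences was not tested. Values of RMA have no zero, so no marker can be called absent.

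**Figure D3:**
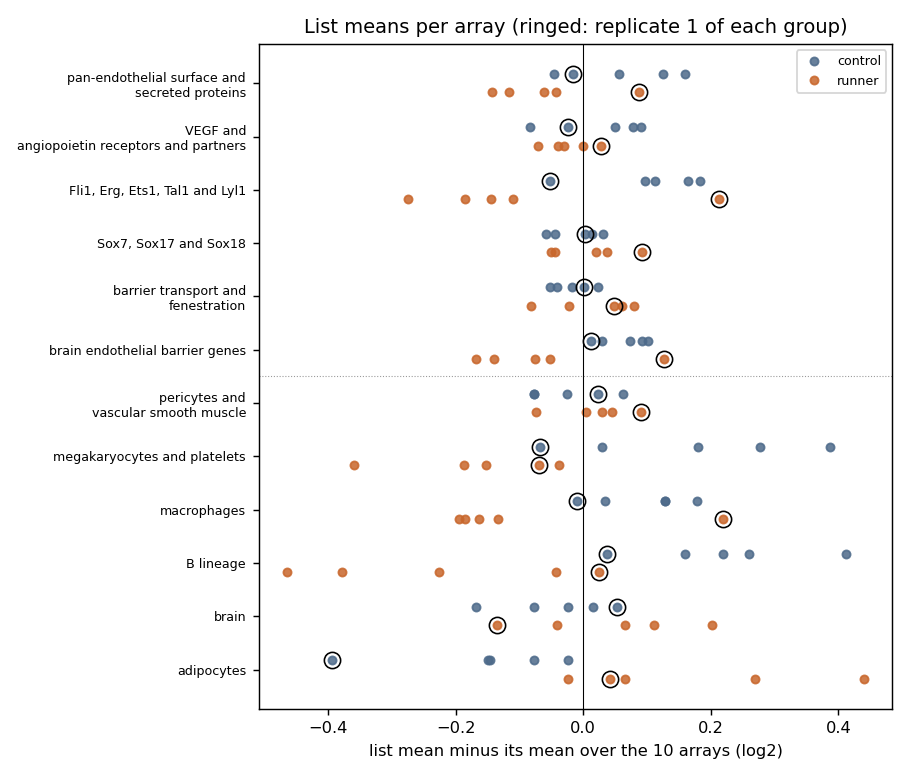
Mean log2 expression of 12 gene lists in each array, minus the mean of that list over the 10 arrays, for controls and runners, with replicate 1 of each group ringed. Runners 2 to 5 lie below all controls and runner 1 above them for the 5 factors shared with blood and for macrophages, while the SOXF factors and pericyte genes overlap between groups.

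Leaving out runner 1 and control 1 together, an alternative chosen with earlier results of these data known, gave 2 endothelial genes that passed the test, Ets1 and Fli1, both lower. For both genes runner 1 was the highest runner and control 1 the lowest control. Leaving out these 2 arrays could therefore only make the differences of Ets1 and Fli1 more negative. That is 5.13% of the 39, where 1.43% of all genes passed and 0.981% passed as lower. Ets1 then differed by -0.32 ± 0.057 (SE; limma adjusted p = 0.0367) and Fli1 by -0.35 ± 0.069 (SE; limma adjusted p = 0.0421). Over their 20 alternatives the adjusted p ran from 0.0367 to 0.992 for Ets1 and from 0.0421 to 0.992 for Fli1. Lyl1 (-0.38 ± 0.097), Emcn (-0.33 ± 0.081), Erg (-0.27 ± 0.069), Tal1 (-0.26 ± 0.068) and Myct1 (-0.33 ± 0.091) followed with limma adjusted p between 0.0707 and 0.103. In these 8 arrays an unadjusted p under 0.05 was reached by 11 of the 39 as lower, 28.2% where 9.07% of all genes did, and by 0 as higher, where 6.41% of all genes did. The groups were apart for 7 with runners lower and for 1, Slc2a1, with runners higher, where 5.98% and 4.18% of all genes were. Of the further endothelial genes, Esm1 and Cd93 passed there as lower, and of the brain barrier genes Slc38a5. Markers of other cells also passed as lower in these 8 arrays: 4 of 12 macrophage, 4 of 9 B lineage, 3 of 8 erythroid, 2 of 10 neutrophil, 1 of 8 megakaryocyte and 1 of 9 blood progenitor genes, 4 of 7 osteoblast genes, 1 of 10 stria vascularis genes and 2 of 10 supporting cell genes. The part of these cells in the calls of Ets1 and Fli1 was not tested. In the osteoblast list runner 1, at 7.79, was again the highest runner, 0.28 above the average of the other runners, but it lay below all controls. Control 1, at 8.04 in that list, was within the range of the other controls.

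Without runner 1 alone, 0 of the 39 passed, where 0.333% of all genes did. At an unadjusted p under 0.05 there were 11 lower and 0 higher, where 8.59% and 5.87% of all genes were. The groups were apart for Myct1, Tal1, Ets1 and Emcn with runners lower and for Slc2a1 with runners higher, where 3.33% and 2.49% of all genes were. The smallest adjusted p were those of Ets1 (-0.29 ± 0.061; limma adjusted p = 0.0674) and Emcn (-0.32 ± 0.075; limma adjusted p = 0.0820). The runner mean was lower for 33 of 39, where 53.4% of all genes were, and the median was -0.10. Leaving out 1 other array gave smaller counts at an unadjusted p under 0.05 than the 11 without runner 1. There were 8 of 39 (20.5%) without control 1, where 8.16% of all genes were. The count was 7 (17.9%) without runner 2 and 6 (15.4%) without control 3, where 7.37% and 7.17% of all genes were. Without control 4 or runner 4 there were 4 of 39 (10.3%), where 5.94% and 6.05% of all genes were. There were 2 of 39 (5.13%) without runner 3, where 5.68% of all genes were. Without control 2, control 5 or runner 5 there were 3 of 39 (7.69%), where 4.84%, 5.32% and 6.41% of all genes were. Array weights, which let limma count less consistent arrays for less, gave 12 lower and 2 higher, where 7.1% and 5.79% of all genes were. Pecam1 differed by -0.11 without runner 1 and control 1, and Mfsd2a and Slc2a1 by 0.16 and 0.09.

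**Figure D4:**
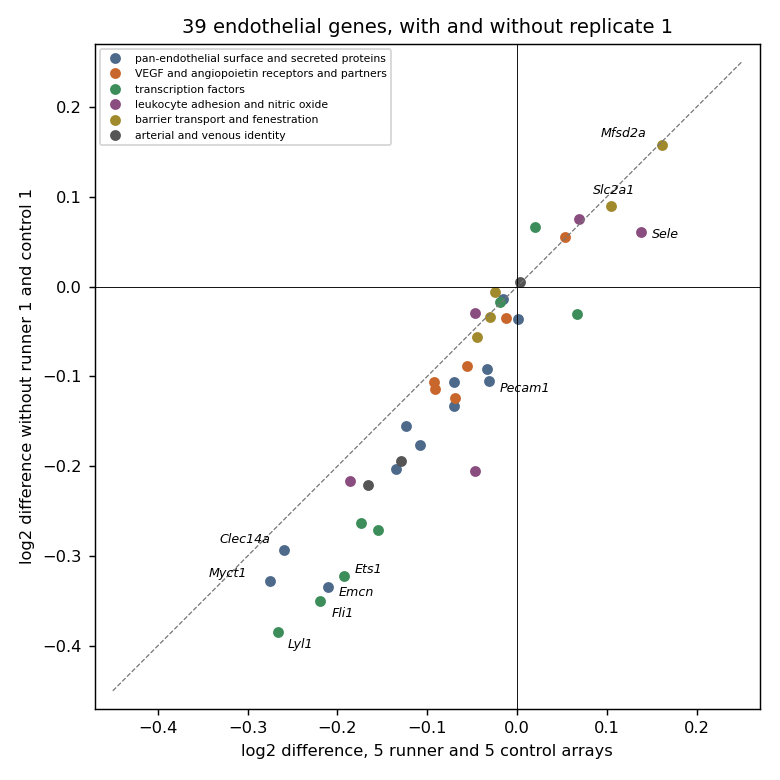
Log2 difference, runner minus control, of the 39 endothelial genes over all 10 arrays (horizontal axis) and over 8 arrays without runner 1 and control 1 (vertical axis), coloured by role, with the dashed line at equality. Most points left of 0 lie below the line, with Lyl1 at -0.27 and -0.38, while Mfsd2a stays near it at 0.16 on both axes.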

How the data were processed

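The authors deposited 1 table of log2 expression values for 10 arrays; per the submitters' processing notes RMA and Partek were used, and their versions, the genome build and any filters were not given in the sources used here. RMA corrects background, equalises array distributions and summarises probes, which can hide a shift common to most genes. Probe sets were named from the platform annotation: 30130 of 39295 carried 1 symbol, 2146 several and 7019 none, and 827 symbols were updated through RefSeq (GRCm38.p6). Where a gene had several probe sets (294 of 29766 genes), the one with the highest mean was kept; each endothelial gene had 1. Runners and controls were compared with limma 3.58.1 (lmFit, eBayes; R 4.3.3), with Benjamini-Hochberg adjustment over all genes, tested on simulated data. Members and lists were chosen with earlier results of these data known. Per-array values are given for the 2 genes of each role with the smallest unadjusted p and for Pecam1, Cdh5, Kdr and Tal1, and the 2 genes of smallest p were named from other lists; Ets1, Emcn, Cd93 and other genes outside this rule were named after their values were seen. Egfl7 and Nrp1 lie on probe sets with several symbols and were left out. Alternatives were 20 in number, covering filter, variance model, normalization, probe sets, array weights, replicate block and arrays left out.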

Additional observations from a re-analysis of the deposited data

Results flagged for a closer look

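In 3 of 46 groups of 5 arrays checked, 1 array lay far from the others by Dixon's ratio (gap to the nearest array over the group's range, critical value 0.71), and chance alone gives about 1 in 20 groups. All 3 were control groups. For Selp, P-selectin, control 2 was highest at 6.03 (ratio 0.760). For Mfsd2a, the lipid transporter, control 5 was lowest at 7.25 (ratio 0.769). For Efnb2, the arterial ephrin, control 3 was lowest at 7.89 (ratio 0.737).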

How the results depend on the processing

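Over all 20 alternatives, 0 endothelial genes passed except without runner 1 and control 1, where 2 did (Ets1 and Fli1). With all 10 arrays an adjusted p under 0.1 also gave 0. That threshold gave 4 without runner 1 and 6 without runner 1 and control 1. The share of all genes at 0.1 was not counted. At 0.05 it was 0.333% without runner 1 and 1.43% without runner 1 and control 1. The count at an unadjusted p under 0.05, 6 of 39 as reported, was 14 with array weights (12 lower, 2 higher) and 11 without runner 1 and control 1, and 2 to 11 when 1 array was left out. The share of all genes was 7.13% as reported, 12.9% with array weights and 15.5% without runner 1 and control 1. With 1 array left out that share was 4.84% to 14.5%. The count of genes with groups apart was 1 (Slc2a1) with dim genes left out, with quantile normalization repeated and with median centring. It was 8 without runner 1 and control 1, and 2 to 5 with 1 array left out. The causes of these changes were not tested, but the dim filter removes Myct1. Of all genes, 0.548% were apart with runners lower and 0.38% with runners higher over the 10 arrays. These shares were 3.33% and 2.49% without runner 1, and 5.98% and 4.18% without runner 1 and control 1. On centred arrays 0.793% were apart with runners higher. The shares in the other alternatives are not given here. With 1 array left out, 27 to 33 genes were lower, 0 to 0 passed, and the median was -0.10 to -0.040. Over the same settings role medians were -0.13 to -0.066 for surface and secreted proteins, -0.086 to -0.042 for receptors, -0.23 to -0.13 for transcription factors, -0.058 to 0.036 for adhesion, -0.045 to 0.015 for barrier and -0.19 to -0.095 for arterial and venous genes. Pecam1 ran from -0.076 to 0.018, being 0.0080 without control 2, 0.018 without control 4 and 0.0074 without runner 3. With the replicate number as a block, 0 passed and 5 were at an unadjusted p under 0.05, where 6.67% of all genes were. In that fit 30 were lower and the median was -0.056. Same-numbered runner and control arrays correlated at -0.25, 0.061, 0.28, 0.070 and -0.19 in their deviations, and only number 3 correlated best with its own number. The values thus gave no sign of pairing by number, but such correlations cannot show that samples were not paired.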

Other observations

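Lymphatic endothelium and the cells that wrap vessels were counted apart from the 39 genes. Of 4 lymphatic genes, Mmrn1, a multimerin also stored in platelets, was lower in runners (-0.29 ± 0.099, SE), Lyve1, the hyaluronan receptor also made by some macrophages, was higher (0.21 ± 0.082), and Pdpn, podoplanin, which many other cochlear cells make, was lower (-0.15 ± 0.066). These 3 were at an unadjusted p under 0.05, 2 lower and 1 higher, and 0 passed over all genes in limma. Prox1, the lymphatic master regulator that supporting cells also express, differed by 0.09 ± 0.079. Of 11 pericyte and vascular smooth muscle genes, 5 were lower and 6 higher, 1 at an unadjusted p under 0.05, and the median was 0.0025. Tagln (0.25 ± 0.088) and Myh11 (0.21 ± 0.095), both of the smooth muscle contractile apparatus, had the smallest p of that list. The mean of the list was 6.58 to 6.72 in controls and 6.58 to 6.75 in runners. Marker lists of stria vascularis, supporting cells and hair cells had 6 of 10, 8 of 10 and 9 of 10 genes lower. Of 9 brain markers, 3 were lower and 6 higher, 0 at an unadjusted p under 0.05 in limma. Gabra6, which had the smallest p of the brain list, averaged 10.56 in controls and 10.81 in runners, where the median of all genes was 5.40. The part of brain vessels in the endothelial values was not tested.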
